A study of Homo sapiens with 16 samples.

Results

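ATF4, a transcription factor of the basic leucine zipper family, and 9 genes of its stress response (ATF3, DDIT3, DDIT4, TRIB3, ASNS, SESN2, NUPR1, CEBPB and VLDLR) were followed over time in SUM225 breast cancer cells exposed to a HER2 inhibitor. Every probe on the array that carried the symbol of 1 of these genes was taken. This gave 16 probes for 10 genes, out of 24526 probes with 18631 symbols. SUM225 (SUM-225 in the sample labels) is an established human line with amplified, over expressed HER2, and CP724,714 is a small molecule that blocks the kinase activity of HER2. Parallel cultures in Ham's F-12 medium with serum, insulin and hydrocortisone received 1 µM CP724,714, and total RNA was taken at 0 h and then every 3 h up to 45 h. Each of the 16 time points was measured on 1 Illumina bead array, so no time point had a replicate. No untreated course was analysed here, and time in culture cannot be told apart from time in the inhibitor.

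ATF4 is the main effector of the integrated stress response. Kinases that sense amino acid shortage, unfolded protein, heme deficiency or double-stranded RNA phosphorylate the translation factor eIF2alpha, which lowers protein synthesis in general but favours translation of the ATF4 mRNA. ATF4 protein then binds, often with a C/EBP partner, to response elements in genes for amino acid synthesis and uptake, for other transcription factors and for proteins that limit growth signalling. The arrays measured mRNA and not ATF4 protein. In tumor cells this response is best known for supplying amino acids and for tolerance of nutrient and protein folding stress.

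The core of the response element bound by ATF4 with C/EBP proteins is TGATGNAA, and it was searched on both strands in RefSeq windows of GRCh38.p14 that run from 250 bases before to 50 bases after each annotated start. Windows were given for 9 of the 10 genes (16 windows of 300 bases), and NUPR1 had none. The letters occurred in 2 of these windows, against 1266 of 34943 windows over all genes (3.62%). The stretches that hold them are printed because ASNS had the largest step of the 10 genes and because ATF3, with the same letters, had none. Capitals mark the motif.

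ASNS, chr7:97872445-97872500, minus strand: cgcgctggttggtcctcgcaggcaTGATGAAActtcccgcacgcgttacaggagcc

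ATF3, chr1:212565192-212565247, plus strand: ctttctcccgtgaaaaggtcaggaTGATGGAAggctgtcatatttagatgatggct

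The motif of ASNS begins 68 bases before the upstream of its annotated starts. That of ATF3 begins 191 bases before the upstream of its own. At the downstream start of either gene, the window did not hold these letters. A match is a description of the letters and shows no binding. The windows of ATF4, DDIT3, DDIT4, TRIB3, SESN2, CEBPB and VLDLR did not hold these letters, which says nothing of elements elsewhere in those genes.

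A probe counted as detected on an array when its detection p-value, the chance of such a signal among negative control beads, was under 0.05. Detected probes numbered between 14110 and 15073 per array, and precision is limited by having only 16 arrays. HER2 (ERBB2), its neighbour GRB7 and the epithelial or luminal markers EPCAM, KRT8, KRT18, KRT19, CDH1 and ESR1 were detected on all 16 arrays. The ESR1 signal before normalization was low, at 213 to 468, against 68945.5 to 72059.4 for ERBB2. Of the fibroblast, leukocyte and endothelial markers reported here, COL3A1, PDGFRB, DCN and PTPRC were detected on 0 arrays, CD3E and CDH5 on 1, COL1A1 and COL1A2 on 5, VWF on 13, and CD14 and PECAM1 on 16. RNA was taken from whole cultures, in which fewer expressing cells and less RNA per cell cannot be told apart. Probes detected on at least 3 arrays were tested, which kept 16110 of all probes and 13 of the 16 described here. The other 3, a pair of ATF3 probes (ILMN_1791346 and ILMN_1661109) and a VLDLR probe (ILMN_1675092), were detected on 0 arrays and are not described further. Values below are normalized log2 signals, a difference of 1 is a doubling, and levels are compared between times for the same probe only.

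The data showed 2 kinds of course. ASNS, TRIB3 and the pair of bright ATF4 probes were higher by 0.59 to 1.64 log2 units at 12 h than at 9 h, whereas NUPR1, VLDLR, ATF3 and DDIT3 rose over the 45 h with no step of that size. A cubic course in hours was fitted to each probe with limma, and its linear part gives the change over 45 h. The course depended on time for 7 of the 13 probes at an adjusted p under 0.05, against 51.3% of all probes tested. A rising linear trend was found for 6 probes of 5 genes (the bright ATF4 pair, ATF3, DDIT3, NUPR1 and VLDLR), against 26.0% of all probes, and a falling trend for 1 (the bright ASNS probe), against 21.7%. Only NUPR1, 1 probe, departed from a straight line, against 19.3%. The median linear change was 0.26 over the 13 probes and 0.05 over all probes tested.

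**Figure D1:**
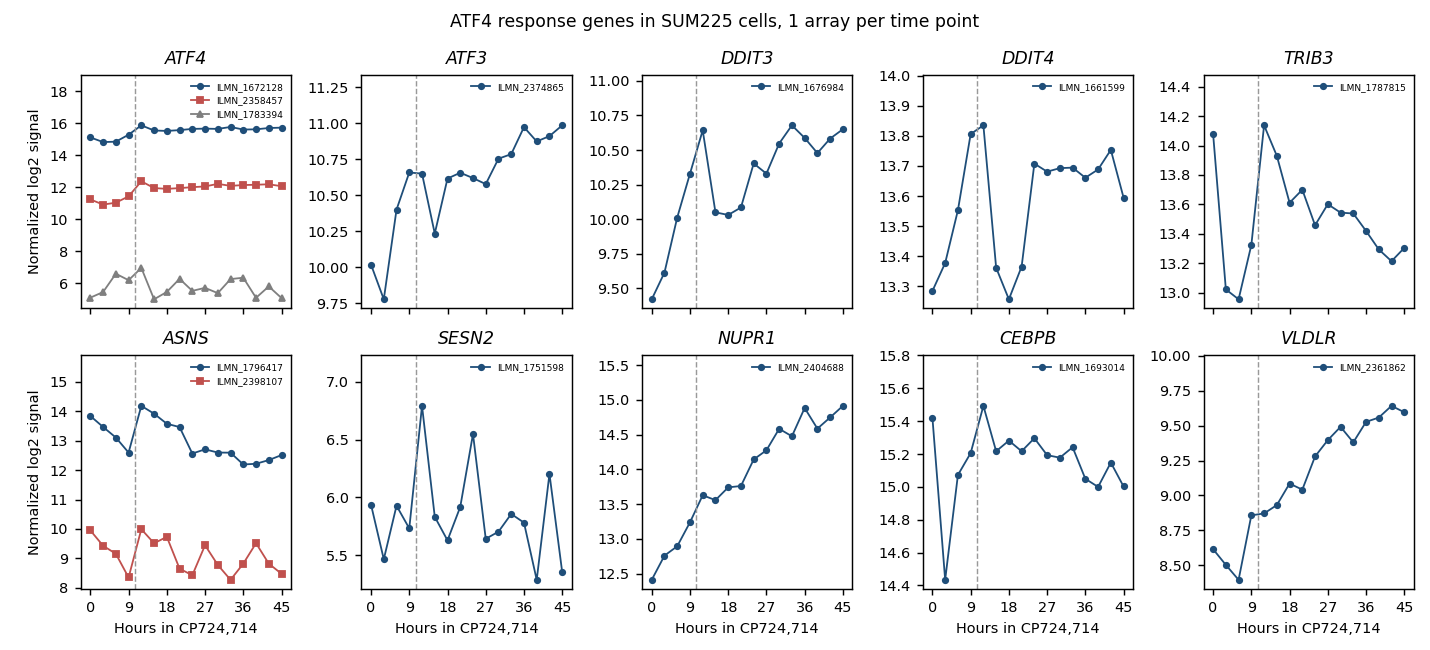
Normalized log2 signal of the 13 tested probes (vertical axes, 1 panel per gene with its own scale) against hours in CP724,714, with 1 array per point and a dashed line between 9 h and 12 h. ATF4, TRIB3, ASNS, SESN2, CEBPB and DDIT4 have their highest array at 12 h, while NUPR1, VLDLR and ATF3 end near their highest values.

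Between 9 h and 12 h, 12 of the 13 probes had a higher value on the later array, against 51.6% of all probes. The median difference was 0.59 over the 13 probes and 0.01 over all. At a threshold of 2-fold on the normalized values, 3 probes were past it at 12 h (both ASNS probes and SESN2), against 1.16% of all probes, and 0 were lower, against 1.79%. SESN2 was not detected at 9 h, and with the limit of detection there its difference is only known to be at least 1.54-fold, so 2 probes, both of ASNS, were measured past 2-fold on both arrays. The interval from 9 h to 12 h held the largest step of the course for 5 of the 13 probes and the largest rise for 6. The position of this step was known from these data when the genes were chosen, so it is described here and was not tested.

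The arrays on either side of the interval from 9 h to 12 h can also be compared as windows. The 4 arrays from 12 h to 21 h all lay above the 3 arrays from 3 h to 9 h for 6 probes (the bright ATF4 pair, TRIB3, NUPR1, CEBPB and VLDLR), against 15.9% of all probes, and for 0 probes did they all lie below, against 15.4%. The bright ASNS probe was not among them because its 3 h and 21 h values were level at 13.47. A gradual rise also separates such windows, as for VLDLR, whose arrays at 9 h and 12 h differed by 0.01. Arrays of such a window are different times and not replicates. The step falls where the course divides into sets of 4 consecutive arrays (0 h to 9 h, 12 h to 21 h, 24 h to 33 h and 36 h to 45 h), a division noticed in these data, and the labels name no batch. Over all tested probes the root-mean-square difference between the 9 h and 12 h arrays was 0.42, beside 0.42 from 42 h to 45 h and 0.40 from 3 h to 6 h, both inside a set, and 0.26 to 0.36 for the other intervals. Any part of such sets in the step was not tested, and the step and a difference between sets cannot be told apart.

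**Figure D2:**
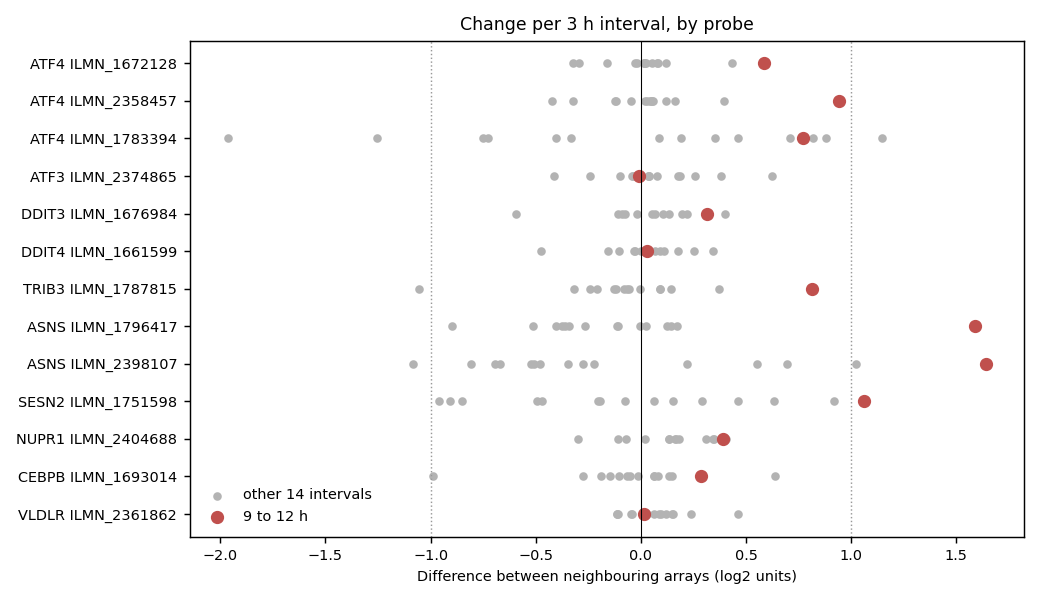
Difference between neighbouring arrays (log2 units, horizontal axis) for each tested probe, with the interval from 9 h to 12 h in red, the other intervals in grey and dotted lines at 2-fold. The red points of both ASNS probes lie at 1.59 and 1.64, and those of ATF3, DDIT4 and VLDLR lie between -0.01 and 0.03.

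ATF4 itself had 3 probes, of which the brightest (ILMN_1672128) gave 15.12, 14.83, 14.85 and 15.29 at 0, 3, 6 and 9 h and then 15.88, 15.55, 15.53 and 15.58 at 12, 15, 18 and 21 h. From 24 h to 45 h its values were 15.65, 15.67, 15.65, 15.77, 15.61, 15.63, 15.71 and 15.73. The 12 h array was the highest, and every array from 12 h onwards lay above every array before it. After 12 h the values stayed between 15.53 and 15.77, closer together than 0.28, which is the SD that the residual spread of this probe gives for a difference of 2 single arrays. The 12 h value was 0.59 log2 units above that at 9 h, and the linear change over 45 h was 0.71 ± 0.13 (SE of the limma fit over 16 arrays, adjusted p = 0.000177). Its signal before normalization was 62269 at 12 h and highest at 27 h (64006), where it reached 88.0% of the brightest probe on the same array. Whether signals of that size are compressed was not tested.

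The next ATF4 probe (ILMN_2358457) was far from that ceiling, with a highest signal of 9.29% of the brightest probe. It gave 11.24, 10.92, 11.04 and 11.44 from 0 h to 9 h, 12.38, 11.95, 11.91 and 11.95 from 12 h to 21 h, and values between 12.01 and 12.22 from 24 h to 45 h. The order of the arrays repeated that of the brightest probe at the start: lowest at 3 h, highest at 12 h, and no overlap between the arrays before and after the step. Its 12 h value was 1.92-fold above that at 9 h, and its linear change was 1.05 ± 0.18 (limma, adjusted p = 6.26e-05). When the fit was given an added step term at 9 h to 12 h, the step was 0.61 ± 0.16 for the brightest probe and 0.87 ± 0.20 for this probe, and the linear change that remained was 0.07 ± 0.20 and 0.12 ± 0.25 (limma, adjusted p = 0.855 and 0.774). Neither of these remaining changes passed the test. The position of the step term was taken from these data. Its estimate and SE, here and below, describe the course and do not test the step. The dimmest ATF4 probe (ILMN_1783394) was detected only at 6, 9, 12, 21, 33 and 36 h, and its linear change of -0.31 ± 0.45 did not pass the test (limma, adjusted p = 0.604).

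ASNS, which encodes asparagine synthetase and is a classical reporter of amino acid shortage, had the largest step of the 10 genes. Its bright probe (ILMN_1796417) gave 13.84, 13.47, 13.11 and 12.60 at 0, 3, 6 and 9 h, then 14.19, 13.92, 13.58 and 13.47 at 12, 15, 18 and 21 h. From 24 h onwards it gave 12.57, 12.71, 12.60, 12.60, 12.19, 12.22, 12.34 and 12.51. Each harvest to 9 h was lower than the one before it, the 12 h array lay above the starting value, each harvest to 21 h was again lower than the one before, and all arrays from 24 h onwards lay below every array from 12 h to 21 h. The 12 h value was 3.01-fold above that at 9 h (1.59 log2 units, against an SD of 0.65 for a difference of single arrays). Over 45 h ASNS fell by 1.53 ± 0.30 on the log2 scale (limma, adjusted p = 0.000324).

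The dim ASNS probe (ILMN_2398107), detected on all 16 arrays, gave 9.95, 9.43, 9.16 and 8.35 from 0 h to 9 h and 9.99, 9.51, 9.73 and 8.65 from 12 h to 21 h, and lay between 8.27 and 9.52 from 24 h to 45 h. It shared the low 9 h and high 12 h arrays with the bright probe and was 3.12-fold higher at 12 h than at 9 h. Its linear change of -0.85 ± 0.38 did not pass the test (limma, adjusted p = 0.0708), and it passed with cyclic loess normalization (-0.95, adjusted p = 0.0414) and without the 9 h array (-1.08, adjusted p = 0.0130) or the 39 h array (-1.07, adjusted p = 0.0275). With the step as a term, the step was 1.99 ± 0.18 for the bright probe and 1.79 ± 0.45 for the dim one. The linear change that remained was -3.63 ± 0.22 and -2.75 ± 0.56. These changes depend on a term whose position was taken from these data and are not counted as trends.

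VLDLR, the very low density lipoprotein receptor, which takes up triglyceride-rich particles, had no step. Its detected probe (ILMN_2361862) gave 8.61, 8.50, 8.39 and 8.86 from 0 h to 9 h, 8.87, 8.93, 9.08 and 9.04 from 12 h to 21 h, 9.28, 9.40, 9.49 and 9.38 from 24 h to 33 h, and 9.53, 9.56, 9.64 and 9.60 from 36 h to 45 h. The sets of 4 arrays did not overlap, with the lowest at 0 h to 9 h and the highest at 36 h to 45 h. A steady rise also gives such an order. The difference between 9 h and 12 h was 0.01, within the SD of 0.15 for a difference of single arrays. VLDLR rose by 1.23 ± 0.11 over 45 h (limma, adjusted p = 2.87e-08).

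The transcription factors that act beside or downstream of ATF4 differed among themselves. ATF3, a basic leucine zipper factor that is induced by many stresses and is mostly a repressor, gave 10.02, 9.78, 10.40 and 10.66 from 0 h to 9 h (ILMN_2374865). It gave 10.65, 10.23, 10.62 and 10.66 from 12 h to 21 h, between 10.58 and 10.79 from 24 h to 33 h, and 10.97, 10.87, 10.91 and 10.98 from 36 h to 45 h. Its arrays at 9 h and 12 h differed by -0.01, its early increase came between 3 h and 9 h, and the last 4 arrays were the highest. ATF3 rose by 0.90 ± 0.14 over 45 h (limma, adjusted p = 2.43e-05).

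DDIT3 encodes CHOP, a C/EBP family factor that promotes death of cells under lasting endoplasmic reticulum stress. Its probe (ILMN_1676984) gave 9.42, 9.61, 10.01, 10.33 and 10.64 at 0, 3, 6, 9 and 12 h, an increase at each harvest. It then gave 10.05, 10.03 and 10.08 at 15, 18 and 21 h and 10.40, 10.33, 10.55, 10.68, 10.59, 10.48, 10.58 and 10.65 from 24 h to 45 h. The 12 h array stood 0.31 above that at 9 h, within the SD of 0.32 for a difference of single arrays, and of the later arrays only those at 33 h and 45 h were as high. DDIT3 rose by 0.94 ± 0.16 over 45 h (limma, adjusted p = 9.63e-05).

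CEBPB, a C/EBP protein with which ATF4 can pair, had no trend but a low array at 3 h. Its probe (ILMN_1693014) gave 15.42, 14.43, 15.07 and 15.21 from 0 h to 9 h, 15.49, 15.22, 15.28 and 15.22 from 12 h to 21 h, and values between 15.00 and 15.30 from 24 h to 45 h. The 3 h value was 1.98-fold below that at 0 h, and the 12 h value was the highest. The linear change was -0.03 ± 0.16 (limma, adjusted p = 0.895), and without the 3 h array it was -0.29 with an adjusted p of 0.0175. The highest signal of this probe was 73.7% of the brightest probe on its array.

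NUPR1, a small nuclear protein induced by stress that acts in transcription and chromatin, had the widest range among the probes of the 10 genes (ILMN_2404688). It gave 12.41, 12.76, 12.89 and 13.24 from 0 h to 9 h, 13.63, 13.56, 13.74 and 13.76 from 12 h to 21 h, 14.14, 14.28, 14.58 and 14.48 from 24 h to 33 h, and 14.88, 14.59, 14.75 and 14.91 from 36 h to 45 h. The sets of 4 arrays did not overlap, but the values at 30 h (14.58) and 39 h (14.59) were almost level. A steady rise also gives such an order. The highest array (45 h) was 5.66-fold above the lowest (0 h). The arrays at 45 h and 36 h, the highest in the order of levels, differed by less than 0.19, the SD for a difference of single arrays. NUPR1 rose by 2.42 ± 0.10 over 45 h (limma, adjusted p = 1.79e-12), and its departure from a straight line had an adjusted p of 0.0163. The step term was 0.04 ± 0.16 for NUPR1 and 0.10 ± 0.18 for VLDLR. It was 0.41 ± 0.24 for CEBPB and 0.67 ± 0.50 for SESN2. It was below 0 for DDIT4 (-0.33 ± 0.20), ATF3 (-0.26 ± 0.21), DDIT3 (-0.20 ± 0.26) and the dimmest ATF4 probe (-0.68 ± 0.71).

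The remaining genes encode proteins that restrain growth signalling. TRIB3, a pseudokinase that binds AKT and ATF4 and dampens their activity, gave 14.08, 13.02, 12.95 and 13.32 from 0 h to 9 h and 14.14, 13.93, 13.61 and 13.70 from 12 h to 21 h (ILMN_1787815). From 24 h to 45 h it gave 13.46, 13.60, 13.54, 13.54, 13.42, 13.29, 13.21 and 13.30. The 0 h and 12 h arrays were the highest, the 3 h and 6 h arrays the lowest, and the values went down again after 12 h. The 3 h array was 2.08-fold below that at 0 h, and the 12 h array was 1.76-fold above that at 9 h (0.81 log2 units, against an SD of 0.49). A course of this kind left little net trend: the linear change was -0.24 ± 0.23 (limma, adjusted p = 0.419). With the step as a term, the step was 1.26 ± 0.24 and the linear change that remained was -1.58 ± 0.29. That change depends on a term whose position was taken from these data and is not counted as a trend.

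DDIT4 encodes REDD1, an inhibitor of mTORC1. Its probe (ILMN_1661599) gave 13.28, 13.38, 13.55 and 13.81 from 0 h to 9 h, 13.84, 13.36, 13.26 and 13.37 from 12 h to 21 h, and values between 13.59 and 13.75 from 24 h to 45 h. High arrays at 9 h and 12 h lay between low arrays at 0 h to 3 h and at 15 h to 21 h, so the early maximum spanned the boundary and had no step at it (0.03). The linear change of 0.26 ± 0.13 did not pass the test (limma, adjusted p = 0.108), and it passed with array weights (0.35, adjusted p = 0.0261) and without the 9 h array (0.33, adjusted p = 0.0331) or the 12 h array (0.32, adjusted p = 0.0397).

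SESN2, a sestrin that senses leucine and holds back mTORC1, was near the limit of detection. Its probe (ILMN_1751598) was detected at 12, 24 and 42 h only, with 6.79, 6.55 and 6.20 on those arrays. Against the lowest detected signal of the 9 h array, the 12 h value was at least 1.54-fold higher, and the linear change of -0.27 ± 0.31 did not pass the test (limma, adjusted p = 0.511). At 42 h and 24 h it was lower than at 12 h, and no order holds among the other arrays.

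Within the first 3 h, TRIB3 was the only tested probe of the 10 genes to lie 2-fold or more below 0 h, which was 1 of 13 against 1.05% of all probes, and 0 lay 2-fold above, against 0.670%. The median difference was -0.29 over the 13 probes and 0.01 over all probes. CEBPB came next at -0.99. These values rest on the single 0 h array, which had the second lowest weight of the 16 when arrays were weighted by their fit (0.297, with 0.270 at 45 h).

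Which trends held within the sets of arrays was examined by fitting the set as a factor with a straight line in hours. In limma, 0 of the 13 probes then had a linear trend past the threshold, and 5 (NUPR1, both ASNS probes, ATF3 and TRIB3) had an unadjusted p under 0.05. The errors of this fit are larger because each set spans few hours. NUPR1 had 1.78 ± 0.46 (limma, adjusted p = 0.0735), the bright ASNS probe had -2.08 ± 0.76 (adjusted p = 0.203) and ATF3 had 1.38 ± 0.61 (adjusted p = 0.302), while ATF4 had 0.15 ± 0.42 and -0.16 ± 0.53 for its bright pair. With a step term placed at 21 h to 24 h instead, 2 of the 13 probes (NUPR1 and VLDLR) had a linear trend. For these fits the share over all tested probes is not reported here, and the counts describe the 13 probes only. All 7 linear calls held when any 1 array was left out.

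**Figure D3:**
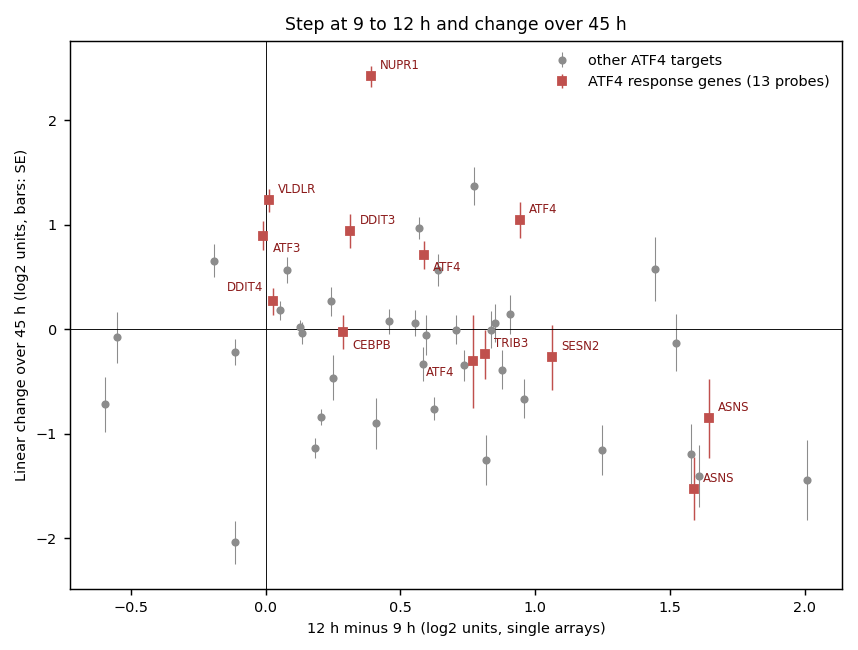
Difference between the 9 h and 12 h arrays (horizontal axis, log2 units) against the fitted linear change over 45 h (vertical axis, log2 units, bars are SE) for the 13 tested probes (red) and 36 other ATF4 target genes (grey). ASNS lies at the lower right with a step of 1.59 and a linear change of -1.53, NUPR1 at the top with a step of 0.39 and a linear change of 2.42, and the bright ATF4 pair between them.

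The 10 genes did not share a single course. Over the 16 arrays, the 45 pairs among the brightest probes of each gene had a median Pearson r of 0.32, with 12 pairs over 0.7 and 13 below 0. The highest was 0.97 for NUPR1 and VLDLR, ATF3 and DDIT3 had 0.89, TRIB3 and CEBPB had 0.74, and the lowest was -0.71 for ASNS with VLDLR, with ASNS and NUPR1 close to it at -0.71. The brightest ATF4 probe had 0.75 with ATF3, 0.80 with DDIT3, 0.79 with NUPR1 and 0.80 with VLDLR. It had 0.41 with TRIB3, 0.50 with CEBPB, 0.47 with DDIT4, 0.26 with SESN2 and -0.26 with ASNS. All values come from the same 16 arrays, so the pairs also share whatever sets the arrays apart, and no test was made. SESN2 was detected on only 3 arrays, and the same counts over pairs of all probes are not reported here. Of 10277 other genes detected on all arrays, those with the course most like the brightest ATF4 probe were LOC125893 (r = 0.95), ZNF285A (0.95), GCC1 (0.94), PCDHB2 (0.94) and C12orf60 (0.94). Those most like the mean course of the other 9 genes were PIK4CB (0.90), CHFR (0.90), SMARCAL1 (0.89), STX5A (0.89) and C19orf25 (0.88).

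Other genes known as ATF4 targets were read from a list of 36, mostly for amino acid synthesis, transport and tRNA charging, with 1 probe per gene. All 36 were tested and 21 (58.3%) depended on time, against 51.3% of all probes tested. Linear trends were rising for 5 and falling for 12, against 26.0% and 21.7% of all probes. Departures from a straight line numbered 7, against 19.3%. The median difference from 9 h to 12 h was 0.59, against 0.01 over all probes. The 12 h to 21 h arrays all lay above the 3 h to 9 h arrays for 13 of the 36 and all below for 0, against 15.9% and 15.4%. PSAT1, an enzyme of serine synthesis, gave 12.25, 12.09, 11.76 and 11.52 from 0 h to 9 h, 13.13, 12.95, 12.47 and 12.20 from 12 h to 21 h, and between 11.03 and 11.59 from 24 h to 45 h, a course of the shape of ASNS with a step of 3.05-fold and a fall over 45 h of 1.41 ± 0.30 (limma, adjusted p = 0.000572). SLC7A5, the transporting subunit of the leucine carrier LAT1, was 2.98-fold higher at 12 h than at 9 h (14.80 against 13.22) and fell over 45 h by 1.20 ± 0.29 (limma, adjusted p = 0.00182).

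Past 2-fold at 12 h were also SLC7A11, STC2, SLC3A2 and CBS, named here after their values were seen. This makes 6 of the 36, against 1.16% of all probes. SLC3A2, the partner of SLC7A5 in that carrier, was 2.88-fold higher. SLC7A11, the cystine transporter, was not detected at 9 h and was at least 3.40-fold higher at 12 h. The list was not uniform. GDF15, a secreted stress hormone, gave 11.33 at 9 h and 11.21 at 12 h with no step and fell by 2.04 ± 0.20 over 45 h (limma, adjusted p = 1.09e-07), whereas JDP2, a basic leucine zipper repressor, rose by 1.37 ± 0.18 (limma, adjusted p = 4.13e-06).

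**Figure D4:**
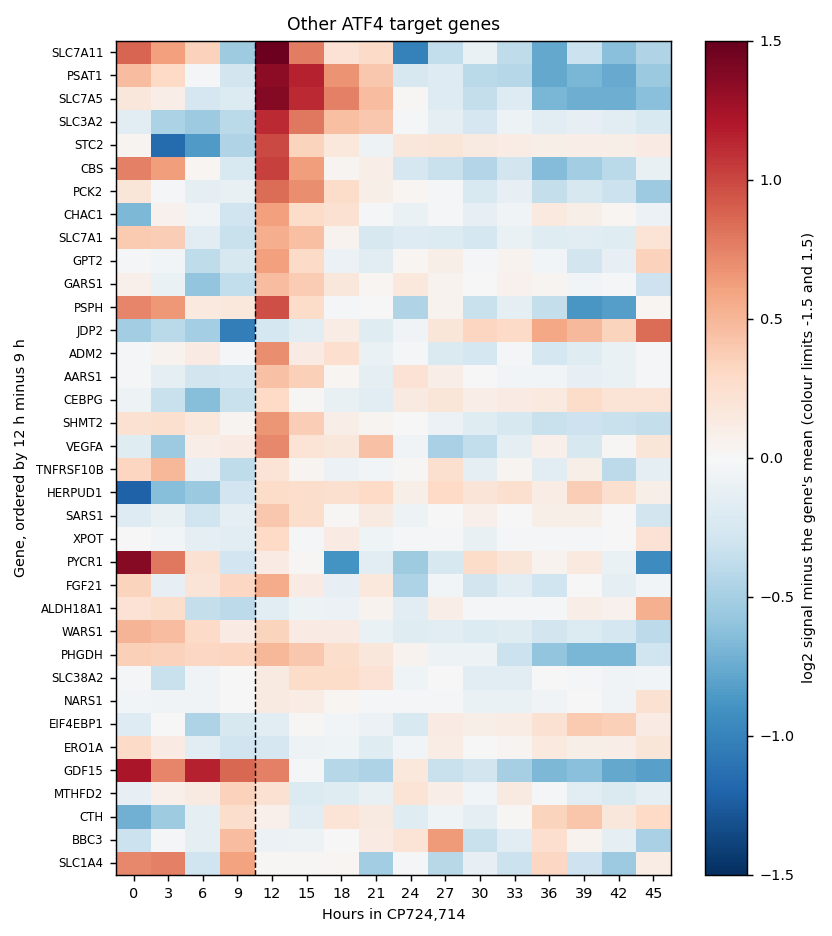
Log2 signal minus the mean of each gene (colour, log2 units) for the 36 other ATF4 target genes (rows, ordered by the difference between 9 h and 12 h) at each hour in CP724,714 (columns). The 6 genes past 2-fold are the upper rows, where the 12 h array is the darkest red and colours (limited at 1.5) are paler or blue by 24 h, while GDF15 near the bottom goes from red to blue without a step.

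The genes that control eIF2alpha phosphorylation and its reversal showed no 2-fold step from 9 h to 12 h where tested. Of 18 such regulators, 16 were tested and 8 (50%) depended on time, against 51.3% of all probes tested. There were 4 rising and 3 falling trends, against 26.0% and 21.7% of all probes. At 12 h, 0 were 2-fold higher than at 9 h, against 1.16%, and the median difference was 0.12. The largest difference was 0.62, for DNAJC3. The 12 h to 21 h arrays all lay above the 3 h to 9 h arrays for 3 of the 16 and all below for 1, against 15.9% and 15.4%. EIF2AK3 and EIF2B3 were not analysed here. IMPACT, an inhibitor of the amino acid sensing kinase GCN2, rose by 0.89 ± 0.22 over 45 h (limma, adjusted p = 0.00194), with its lowest array at 0 h (7.04) and its highest at 45 h (8.67). PPP1R15A, the stress-induced phosphatase subunit GADD34 and itself an ATF4 target, rose by 0.33 ± 0.13 (limma, adjusted p = 0.0387), EIF2B5, the catalytic subunit of the eIF2B exchange factor, rose by 0.29 ± 0.10 (adjusted p = 0.0271), and DNAJC3, an inhibitor of eIF2alpha kinases, fell by 0.67 ± 0.17 (adjusted p = 0.00322).

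The other branches of the unfolded protein response, run by ATF6 and by IRE1 with XBP1, depended on time for 17 of 18 genes (94.4%). The share over all probes tested was 51.3%. There were 5 rising and 10 falling trends, against 26.0% and 21.7% of all probes. The median difference from 9 h to 12 h was 0.18. The 12 h to 21 h arrays all lay above the 3 h to 9 h arrays for 6 of the 18 and all below for 1, against 15.9% and 15.4%. Only HSPA5, the chaperone BiP, named after its value was seen, was 2-fold higher at 12 h than at 9 h (10.50 against 9.42). This was 1 of 18, against 1.16% of all probes. The linear change of HSPA5 was 0.51 ± 0.22 and did not pass the test (limma, adjusted p = 0.0674). ERN1, which encodes IRE1, rose by 1.16 ± 0.10 (limma, adjusted p = 2.78e-08), DNAJB9, a cochaperone, rose by 1.02 ± 0.16 (adjusted p = 2.11e-05) and SEL1L, of the degradation complex, rose by 0.64 ± 0.21 (adjusted p = 0.0141). SDF2L1, which works with chaperones in the endoplasmic reticulum, fell by 0.64 ± 0.13 (adjusted p = 0.000308).

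ATF3 is also an immediate early gene, and 13 other immediate early genes were read beside it. Of the 12 tested, 5 (41.7%) depended on time, against 51.3% of all probes tested. Past 2-fold from 9 h to 12 h were 2 (IER3 and DUSP6), against 1.16%, and the median difference was 0.35. The 12 h to 21 h arrays all lay above the 3 h to 9 h arrays for 7 of the 12 and all below for 0, against 15.9% and 15.4%. At 3 h, 5 were 2-fold or more below 0 h (FOS, EGR1, IER3, DUSP6 and FOSL1), against 1.05% of all probes. Between these 2 arrays ATF3 differed by -0.24. DUSP6 was 14.7-fold lower at 3 h and IER3 was 6.66-fold lower. EGR1 fell by 0.81 ± 0.25 over 45 h (limma, adjusted p = 0.0123), EGR3 fell by 0.55 ± 0.13 (adjusted p = 0.00133), and DUSP1 and ZFP36 rose by 1.17 ± 0.10 (adjusted p = 7.78e-09) and 0.77 ± 0.12 (adjusted p = 2.75e-05).

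**Figure D5:**
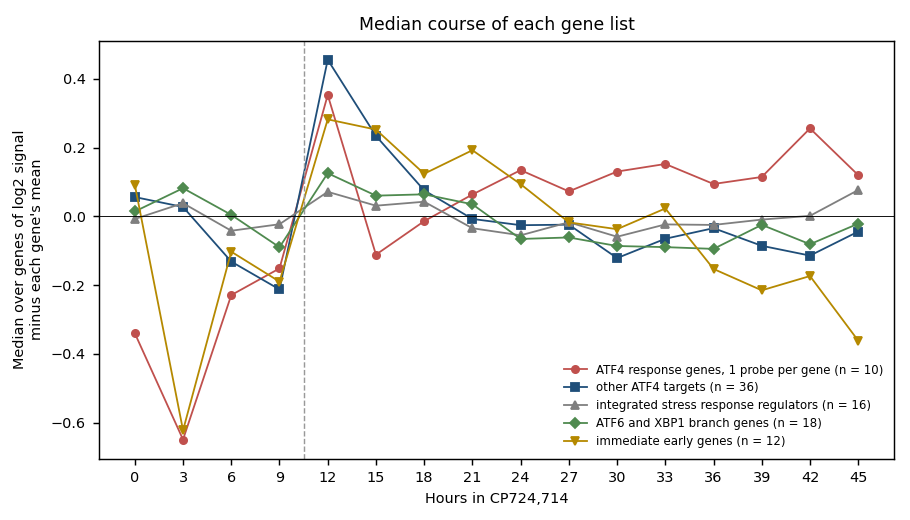
Median over genes of the log2 signal minus the mean of each gene (vertical axis, log2 units) against hours in CP724,714 for the 10 ATF4 response genes, with 1 probe per gene, and the 4 comparison lists. The ATF4 response genes and the other ATF4 targets are highest at 12 h, at 0.35 and 0.46. So are the immediate early genes and the ATF6 and XBP1 branch genes, at 0.28 and 0.13. The regulators stay within 0.10 of 0 on every array.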

How the data were processed

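The authors deposited a linear signal intensity and a detection p-value for each probe and array, with neither background subtraction nor normalization. The methods describe quantile normalization as a later step, and the scanning software was not given in the sources used here. Samples were grouped by the time in their labels. Signals were corrected, normalized and log2 transformed with neqc of limma 3.58.1 in R 4.3.3 (normexp from the detection p-values, offset 16, quantile), which shrinks differences of dim probes. A cubic in hours was fitted (lmFit, eBayes with an intensity trend) to the 16110 probes detected (p under 0.05) on 3 or more arrays, with two-sided tests and Benjamini-Hochberg adjustment over all of them, at 0.05. With 1 array per time point, errors come from deviations around the fitted course and also hold real changes too abrupt for a cubic, steps included. The p-values measure only this spread. The single-array counts at 2-fold, the windows, step terms and correlations had no test.

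Genes of the 4 comparison lists were represented by the probe with the highest mean. Named were every probe of the 10 genes, in each list the 4 genes with the widest range among those that depended on time and were detected on all 16 arrays, and the 5 genes most like each reference course. The genes, the lists and the step position were chosen with earlier results of these data known. The fit was tested on simulated data. Promoter windows came from RefSeq tables (GRCh38.p14), and the files name no genome build. Python 3.11.15 and matplotlib 3.10.9 drew the figures. Alternatives were other background, offset, normalization, filter, weights, courses and step terms, the set of 4 arrays as a factor, other step settings and each array left out. A marker gene of another cell type is not reported here.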

Additional observations from a re-analysis of the deposited data

How the results depend on the processing

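Of 239 recomputed counts, 219 were within 1.5 times the reported value. Those that moved were, with the 12 h set as a factor, the linear trends (0 probes), and with a step between 21 h and 24 h, the linear trends (2) and the time-dependent other ATF4 targets (12), regulators (3), ATF6 and XBP1 genes (10) and immediate early genes (3). Array weights gave 5 curved probes and 9 immediate early genes, a quadratic 3 and 8, a quartic 8 immediate early genes, median scaling 5 regulators, and a 1.5-fold threshold 7 probes at 12 h. The linear change turned sign with array weights for SESN2 (0.16) and CEBPB (0.34), with the set as a factor for the ATF4 probes ILMN_2358457 (-0.16) and ILMN_1783394 (0.60), with the 9 h to 12 h step for ILMN_1783394 (0.41), and with the 21 h to 24 h step for DDIT4 (-0.48), TRIB3 (0.41), the dim ASNS probe (0.13) and CEBPB (0.069). The cause was not tested. Leaving out each array gave 7 to 9 time-dependent probes, 7 to 9 with a linear trend, 1 to 4 curved (4 without 0 h, 2 without 6, 9 or 12 h), 2 to 3 past 2-fold, 6 to 8 with separate windows, 17 to 23 other targets, 4 to 10 regulators (4 without 45 h), 14 to 18 ATF6 and XBP1 genes and 5 to 10 immediate early genes (10 without 0 h, 8 without 3 h). CEBPB ranged from -0.29 to 0.079, above 0 without the 0, 12, 39 or 45 h array. The 12 h minus 9 h value of SESN2 was 0.36 without background correction. With means of adjacent arrays (12 and 15 h against 6 and 9 h) the dim ASNS probe had 1.00, SESN2 0.48, VLDLR 0.27 and ILMN_1783394 -0.42. Signal over background limits SESN2 and ILMN_1783394. No paired analysis was possible because there was only 1 array per time point.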
